A study of Anableps anableps with 4 samples.

Results

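Proteasome subunit genes were followed across tissue sections of the four-eyed fish Anableps anableps. The members were all genes whose symbol in the files began with PSMA, PSMB, PSMC or PSMD and a digit, in upper or lower case, and genes sharing a name were kept apart by identifier. This gave 44 of the 22934 genes, with 8 PSMA, 14 PSMB, 5 PSMC and 16 PSMD genes. The remaining member, PSMC3IP, is a partner of an ATPase subunit that acts in meiotic recombination and is not a subunit itself. No gene in the files carried the symbol PSMA7 or PSMC1.

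The sections were 2 adult eyes, 1 stage 4 head, and 1 capture area that held a stage 3 head together with a stage 5 eye, all fresh frozen, cut at 10 µm and read on Visium slides, where each barcoded spot captures poly(A) RNA from the patch of section lying on it. No strain, sex, treatment or genotype is given in the labels, the adult age is not given as a number, and all sections carry batch number 1. Whether the adult sections came from 1 animal is not stated, and the stage 3 and stage 5 tissue could not be separated, so that area was used as 1 sample. Each developmental group had 1 section, so adult and developmental values were set side by side with no test, and the adult SD may be technical.

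The proteasome degrades proteins that carry ubiquitin chains. Its core particle is a stack of rings of alpha (PSMA) and beta (PSMB) subunits, in which PSMB5, PSMB6 and PSMB7 cut the protein. The regulatory particle is built of PSMC ATPases, which unfold the substrate, and PSMD subunits, which bind ubiquitin, remove it or hold the lid and base together. In jawed vertebrates, immune-type beta subunits can take the place of the cutting ones. In the lens, proteasomes are known for protein turnover during fibre cell differentiation, in a tissue whose mature cells keep their crystallins for life.

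Spots with at least 100 UMIs (unique molecular identifiers, each counting 1 captured RNA molecule) were used, which left 1293 and 1488 spots in adult eyes 1 and 2, against 1135 for the stage 4 head and 779 for the mixed area of stage 3 head and stage 5 eye. They held 4318525 and 5161091 UMIs in the adult eyes, against 4269120 and 1513171 UMIs. Spots were placed in classes by marker genes, none of them a member. A lens spot had at least 20% of its UMIs from crystallins, a retina spot at least 1% from phototransduction and inner retina markers, a muscle spot at least 10% from contractile genes and an epithelium spot at least 1% from keratins and junction genes. Lens spots numbered 297 and 454 in the adult eyes, against 113 and 54 in the stage 4 head and the mixed area. Retina spots numbered 214 and 244 against 104 and 139, muscle spots 42 and 54 against 167 and 19, and epithelium spots 146 and 162 against 70 and 66. Barcodes of the same array positions recur between sections (95 to 1015 shared per pair), so they do not identify shared tissue. A spot can hold several cells, and less RNA per cell cannot be told apart from fewer cells of a type.

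The members gave 6909 and 7538 UMIs in adult eyes 1 and 2, against 4420 for the stage 4 head and 2859 for the mixed area. 42 and 37 of the 44 had a UMI in the adult eyes, against 39 and 39. PSMB11, known in mammals as the beta subunit of thymus proteasomes, and its copy psmb11b had no UMI in any section. 5 further members stayed under 20 UMIs over all sections together. These were psma6l with 6, psmb12 with 14, psmb13a with 1, psmb8a with 5 and psmb9a with 2 UMIs, of which psmb8a and psmb9a are the immune-type counterparts of PSMB5 and PSMB6. psma6l is a further alpha subunit gene, and psmb12 and psmb13a belong to the immune-type beta subunits of fishes. Every other member had UMIs in all 4 sections, and 36 members reached 100 UMIs over all sections.

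As a share of all UMIs, the summed members did not separate adult from developmental sections. They took 0.160% (exact Clopper-Pearson 95% interval 0.156 to 0.164%) of the UMIs of adult eye 1 and 0.146% (0.143 to 0.149%) in adult eye 2, against 0.104% (0.101 to 0.107%) for the stage 4 head and 0.189% (0.182 to 0.196%) for the mixed area. The mixed area was highest and the stage 4 head lowest, with the adult eyes between them. PSMC3IP gave 34 and 32 of the adult UMIs, against 29 and 17. Intervals and the floors given for counts of 0 (3 counts per section) cover counting error only. The adult mean of 0.153 ± 0.00985% (SD, n = 2) was 0.07 above the developmental mean on the log2 scale, and the sign turned to -0.30 without the stage 4 head and to -0.0018 without adult eye 1. Lens spots made up 23.0% and 30.5% of the adult spots, against 9.96% and 6.93% of the developmental ones. By UMIs they held 2902539 of 4318525 and 3685756 of 5161091 in the adult eyes. In the stage 4 head they held 394781 of 4269120 UMIs and in the mixed area 150786 of 1513171. Muscle spots held 1774318 UMIs of the stage 4 head. The part of this tissue make-up in the whole-section values was not tested. With crystallin UMIs left out of the total, the members took 0.239% and 0.219% in the adult eyes, against 0.108% and 0.197%, and both adult eyes lay above both developmental sections (log2 ratio 0.58).

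**Figure D1:**
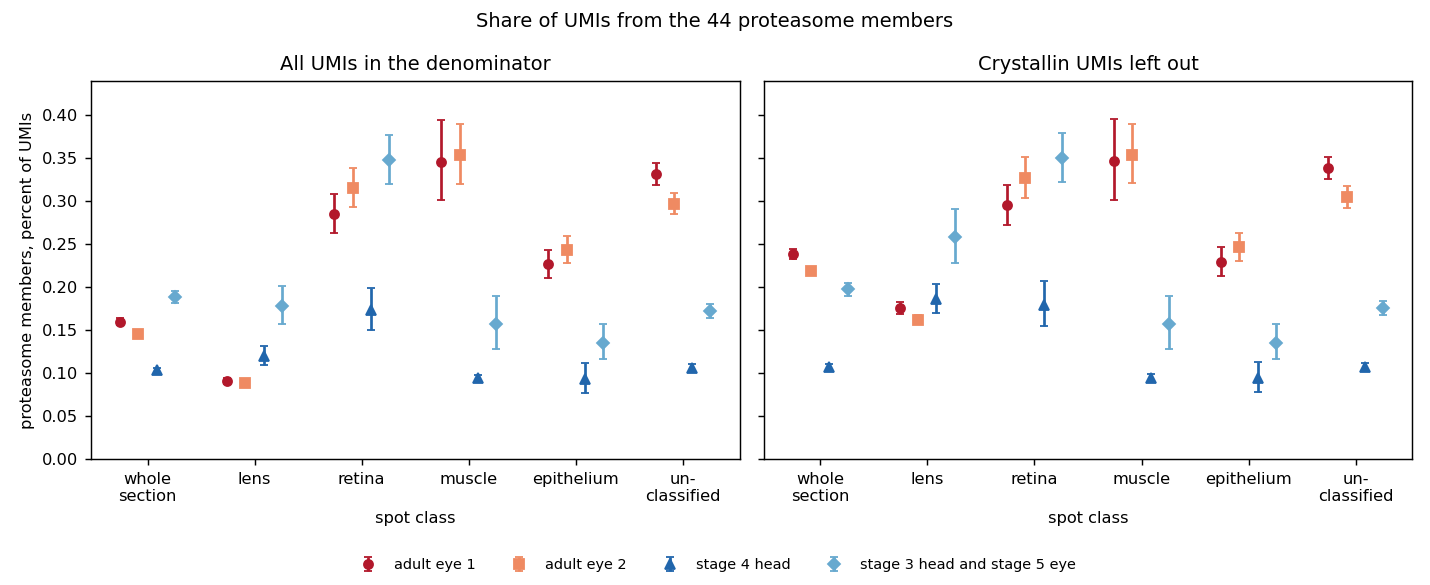
Share of UMIs from the 44 members (vertical axis, percent) in whole sections and in each spot class, for all UMIs (left) and with crystallin UMIs left out (right). Points are single sections, bars are exact 95% intervals for counting error, with the adult points lowest in lens, highest in muscle, epithelium and unclassified spots, and between the developmental points in retina.

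The spot classes went different ways. In lens spots the members took 0.0912% and 0.0882% of UMIs in adult eyes 1 and 2, against 0.120% for the stage 4 head and 0.178% for the mixed area. Both adult lenses lay below both developmental ones, by 0.73 on the log2 scale for the means. Crystallins held 48.2% and 45.7% of adult lens UMIs, against 35.4% and 31.1%, and ribosomal protein genes held 10.2% and 9.18%, against 28.0% and 28.7%. With crystallins left out, the adult lens values were 0.176% and 0.162%, against 0.186% and 0.259%, so the order held and the log2 ratio shrank to -0.39. With ribosomal protein genes left out as well, it was -0.90. The adult lens was lower for all 4 families on the scale of all UMIs, with log2 ratios of -0.90 for PSMA, -0.69 for PSMB, -0.87 for PSMC and -0.55 for PSMD. For the PSMD family the sections overlapped once crystallins were left out. Other gene lists were lower in adult lens as well on the scale of all UMIs. Their log2 ratios were -0.85 for cytosolic chaperonin genes, -0.99 for other ubiquitin and proteasome genes and -1.55 for ribosomal protein genes.

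Retina spots gave no separation. The members took 0.285% and 0.316% of UMIs in the adult retina, against 0.173% for the stage 4 head and 0.348% for the mixed area. The adult values lay between the developmental ones, and the log2 ratio of means of 0.21 turned to -0.21 without the stage 4 head.

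Muscle and epithelium spots were higher in the adult eyes. In muscle the members took 0.346% and 0.354%, against 0.0939% and 0.157%, and the groups did not overlap (log2 ratio 1.48). The adult muscle mean was 0.350 ± 0.00552% (SD, n = 2). In epithelium they took 0.227% and 0.244%, against 0.0934% and 0.135%, again without overlap (log2 ratio 1.04). Spots of no class, 594 and 574 in the adult eyes against 681 and 501, gave 0.331% and 0.297%, against 0.106% and 0.172%. In these classes other values moved as well. The median muscle spot held 1451.5 and 2127 UMIs in the adult eyes, against 8591 and 3194, contractile markers held 12.02% and 12.6% of muscle UMIs against 17.4% and 14.6%, and globins held 3.47% and 3.70% of unclassified UMIs against 11.5% and 8.50%. In epithelium spots globins held 0.183% and 0.185% of adult UMIs, against 3.29% and 1.57%, and epithelium markers held 6.01% and 4.40%, against 1.88% and 1.70%. The part of tissue type, depth and blood in these differences was not tested.

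With each spot thinned to 500 UMIs, and spots under 500 left out, the share of spots with any member UMI was compared. It was higher in both adult eyes than in both developmental sections in muscle and epithelium, and lower in lens. In epithelium it was 63.6% of 129 and 66.0% of 141 adult spots, against 41.7% of 60 and 43.3% of 60. There the exact 95% intervals of adult eye 1 (54.6 to 71.9%) and the mixed area (30.6 to 56.8%) overlapped. In muscle it was 84.2% of 38 and 76.7% of 43 adult spots, against 39.2% of 166 in the stage 4 head and 47.4% of 19 in the mixed area. In lens it was 43.5% of 239 and 39.4% of 289 adult spots, against 45.4% of 97 and 62.5% of 40, and the exact 95% intervals of adult eye 1 (37.1 to 50.1%) and the stage 4 head (35.2 to 55.8%) overlapped. In retina it was 75.8% of 149 and 84.8% of 158 adult spots, against 59.2% of 71 and 83.5% of 103, so that adult eye 2 was highest here, where the mixed area was highest by share of UMIs. In whole sections it was 65.6% and 64.5% in the adult eyes, against 40.4% and 56.6%, with both adult eyes above the mixed area, which had the highest share of UMIs. Before thinning, the muscle shares were 97.6% and 87.0%, against 98.8% and 94.7%. No class is known to lack proteasomes, so no background share could be read from another class.

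The members were then set beside all other genes. A gene needed 50 UMIs in its larger group, and it was called when every adult value lay at least 1.5-fold above, or below, every developmental value, with a count of 0 set to the floor. Levels are given as CPM, a gene's UMI count scaled to a common total from which crystallin UMIs were left out. In muscle spots 5 of the 15 members tested were called higher, against 34.9% of all genes tested, and 0 lower, against 4.41%. They were PSMB3, PSMA3, PSMB6, PSMD7 and psma1, of which PSMB3 had 130 and 139 CPM in adult muscle, against 40.6 and 44.9. Adult muscle spots held only 61891 and 115394 UMIs of all genes, so these levels rest on few UMIs. The ratio of adult eye 1 over adult eye 2 ran from 0.32 to 3.36 over the 15 members. In epithelium spots 9 of 17 were called higher, against 37.1% of all genes tested, and 0 lower, against 4.66%. The widest gap was that of the ATPase PSMC2, with 81.4 and 73.3 CPM in adult epithelium, against 24.0 and 23.1, although the developmental values rest on 3 and 3 UMIs. Without adult eye 1 only 1 epithelium member still reached 50 UMIs, and it was called, against 43.6% of genes. Without adult eye 2 again only 1 was tested, and 0 called, against 31.8%. Without the mixed area 15 of 17 were called, against 47.7%. The median log2 ratio of the members was 1.21 in muscle and 1.12 in epithelium, where the median over all genes tested was 0.79 and 0.81. In retina spots 0 of 8 were called higher, against 18.0% of genes, and 0 lower, against 5.10%, with medians of 0.34 for the members and 0.38 for all genes. Of the 8 retina members, 3 had both adult values above both developmental ones, against 44.2% of all genes tested. PSMB3 had 149 and 111 CPM in the adult retina, against 46.4 and 88.4, and psma1 had 111 and 133 against 64.9 and 106. For PSMD7 adult eye 2 and the mixed area were both at 124. In epithelium and retina a gene could reach the minimum through its higher group alone. In muscle all 15 members reached it through the developmental group, where their mean levels were lower. Without the stage 4 head 0 muscle members were tested. These counts therefore describe the members measured and not the whole set.

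In whole sections 5 of 36 members were called higher in the adult eyes, against 13.0% of all genes tested, and 0 lower, against 4.88%, shares near the background. The stage 4 head was the lowest section for 35 of the 36, and for 74.0% of all genes tested. The 5 were PSMB10, PSMD7, PSMD5, psma6b and PSMC2. On the scale of all UMIs 1 member was called higher, against 5.79% of genes, and without the mixed area 29 were, against 64.1%. In 21 of the 36 both adult values lay above both developmental ones, against 32.6% of all genes tested, in 0 they lay below, against 12.1%, and in 15 the groups overlapped. The median log2 ratio was 0.58 for the members and 0.25 for all genes tested.

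**Figure D2:**
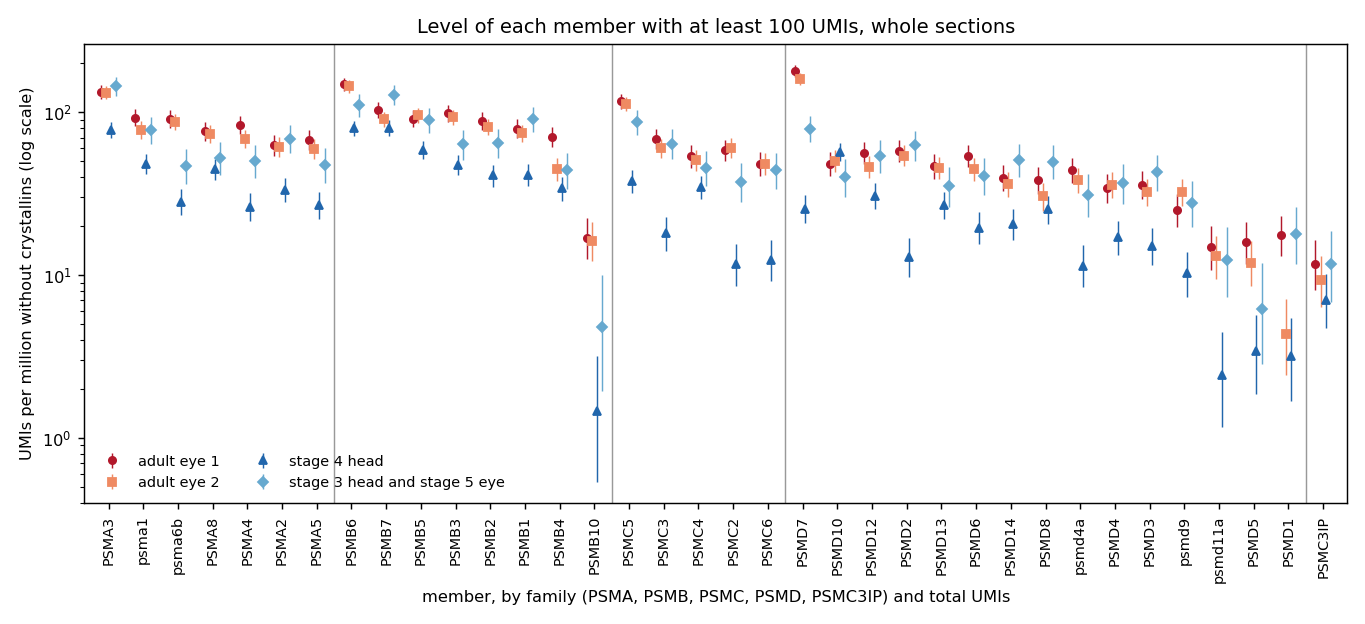
CPM (vertical axis, log scale) of each member with at least 100 UMIs in whole sections. Points are single sections with exact Poisson 95% intervals, grouped by family, and the stage 4 head lies lowest for all plotted members but PSMD10.

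Among the alpha subunits, psma6b (ENSABLG00000005998) had 91.3 and 87.6 CPM in the adult eyes, against 28.3 for the stage 4 head and 47.0 for the mixed area. Its adult values exceeded the developmental ones by at least 1.87-fold. PSMA3 and psma1 were the members of this family with the most UMIs. PSMA3 stood at 133 and 132 CPM against 78.3 and 144, with the mixed area highest. For psma1 the values were 93.0 and 78.0 against 48.3 and 78.0, so that adult eye 2 and the mixed area had the same value to 3 digits. PSMA8, in mammals the testis counterpart of PSMA7, had 76.8 and 73.7 CPM in the adult eyes, against 44.9 and 52.5.

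Among the cutting subunits, PSMB6 had 149 and 144 CPM in the adult eyes, against 79.7 and 111, with the adult eyes above both. PSMB5 had 91.6 and 95.7 against 59.0 and 89.8. PSMB7 had 104 and 90.5 against 80.2 and 128, and here the groups overlapped. PSMB10, the immune-type counterpart of PSMB7, had few UMIs and the widest gap. It had 49 and 56 UMIs in the adult eyes, against 6 and 7, which is 16.9 (exact Poisson 95% interval 12.5 to 22.4) and 16.2 (12.3 to 21.1) CPM, against 1.46 (0.54 to 3.18) and 4.83 (1.94 to 9.96). The groups were at least 3.36-fold apart. It came mainly from spots of no class, with 46.8 and 51.2 CPM in the adult eyes, against 2.72 and 3.07, and from epithelium, with 31.3 and 36.6 against 7.99 and 23.1. In lens spots it had 0 and 3 UMIs in the adult eyes and 0 in both developmental sections, and the floor of 3 counts stood at 1.99 CPM for adult eye 1, 11.8 for the stage 4 head and 28.9 for the mixed area. As a share of the immune-type and cutting subunits together, the immune-type ones took 13.8% (7.57 to 22.5%) and 12.1% (6.76 to 19.4%) in adult epithelium, against 12.5% (1.55 to 38.3%) and 9.09% (1.92 to 24.3%). In whole sections that share was 5.77% and 4.68%, against 1.32% and 2.26%. Markers of immune cells were not among the lists used, so their part in the PSMB10 values was not tested.

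Among the ATPases, PSMC2 had 58.4 and 60.6 CPM in the adult eyes, against 11.7 and 37.3, at least 1.57-fold apart. PSMC5 had 117 and 113 against 37.8 and 87.0. PSMC3 had 68.5 and 60.1 against 18.0 and 64.2, and here adult eye 2 and the mixed area overlapped.

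Among the other regulatory subunits, PSMD7, the lid partner of the deubiquitinase PSMD14, had 180 and 160 CPM in the adult eyes, against 25.6 and 79.4. The adult eyes were at least 2.02-fold above. PSMD5, an assembly chaperone of the base, had 15.9 and 11.9 against 3.41 and 6.22. PSMD10, also an assembly chaperone, was the only member of the 36 highest in the stage 4 head. It had 48.4 and 50.5 in the adult eyes, against 57.1 and 40.1. In spots of no class its level was 43.0 and 44.3 in the adult eyes, against 86.3 (73.4 to 101) for the stage 4 head and 45.0 for the mixed area. PSMD1, a large scaffold of the base, was named after its values were seen. It had 51 UMIs in adult eye 1 and 15 in adult eye 2, a ratio of 4.05 CPM, whereas the median ratio of the adult eyes over the 36 members was 1.08.

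**Figure D3:**
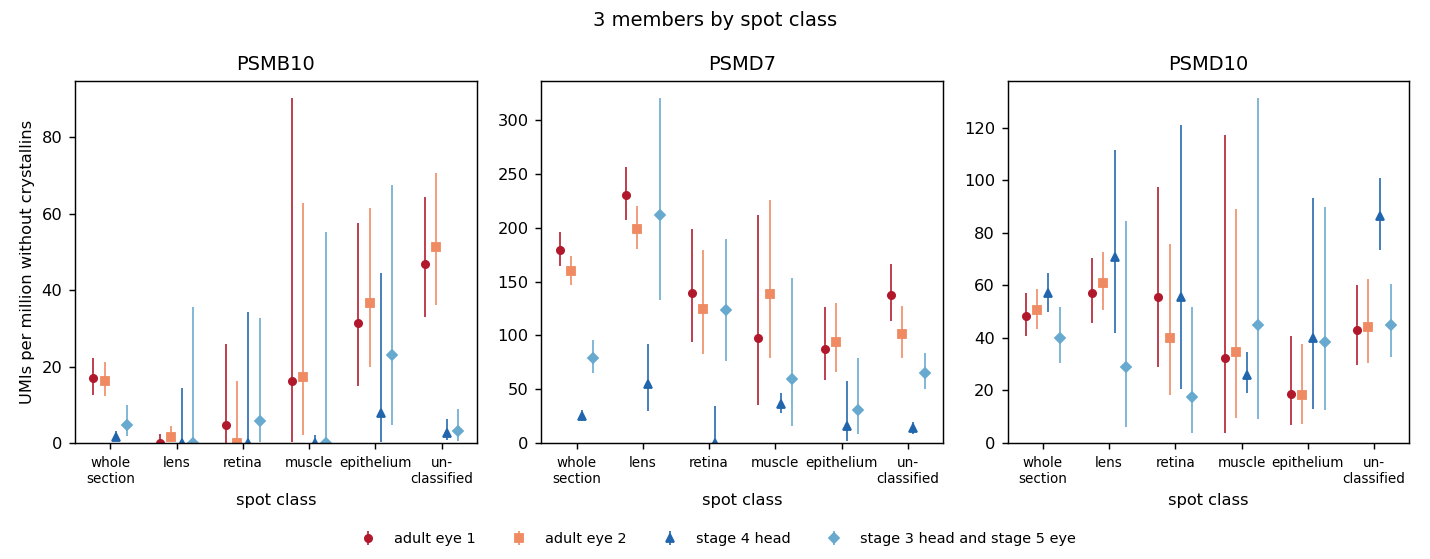
CPM (vertical axis) of PSMB10, PSMD7 and PSMD10 by spot class. Points are single sections with exact Poisson 95% intervals, and PSMB10 lies at or near 0 in lens, PSMD7 highest in adult lens and in the lens of the mixed area, and PSMD10 highest in unclassified spots of the stage 4 head.

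4 symbol stems were carried by more than 1 gene, PSMA6, PSMB11, PSMD4 and PSMD11. psma6l had 6 UMIs in all beside psma6b, and PSMB11 and psmb11b had none. The ubiquitin receptor PSMD4 (ENSABLG00000006364) had 99 and 124 UMIs in the adult eyes, against 70 and 53, and its copy psmd4a (ENSABLG00000009647) 128 and 132, against 47 and 45. In lens spots psmd4a had 62 and 71 adult UMIs, against 4 and 3, where PSMD4 had 15 and 26 against 11 and 0. On CPM the adult lens was higher for psmd4a (41.2 and 35.5, against 15.7 and 28.9), and PSMD4 gave 9.97 and 13.0 against 43.2 and 0. The lid subunit psmd11a had 14.9 and 13.1 CPM in the adult eyes, against 2.44 and 12.4. Its copy psmd11b had 7.61 and 7.25, against 1.46 and 7.60. How reads of similar copies were divided is not given in the sources used here, so the split between copies is uncertain.

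The lens was examined member by member. In lens spots 1 of the 29 members tested was called higher in the adult eyes, against 8.85% of all genes tested, and 7 lower, against 21.2%. The median log2 ratio was -0.67 for the members and -0.34 for all genes tested. The 1 higher member was PSMD5, with 18.6 and 15.5 CPM in the adult lens, against 7.85 and 9.62 in developmental lens, which rest on 2 and 1 UMIs. With either adult eye left out, PSMD5 fell under the minimum of 50 UMIs and was not tested. Without adult eye 2, 4 members were lower, against 26.5% of genes, and without the stage 4 head 15 were, against 37.7%. With PSMD5, 5 members had both adult lenses above both developmental ones, against 19.6% of all genes tested. The others were psmd4a, PSMB6, psma6b and PSMD13. In 14 of the 29 both adult lenses lay below both developmental ones, against 39.7% of all genes tested, and in 10 the groups overlapped. PSMB6 had 159 and 148 CPM in the adult lens, against 106 and 125, psma6b had 117 and 99.9 against 47.1 and 86.6, and PSMD13 had 39.2 and 29.98 against 27.5 and 28.9. The largest gaps on the lower side were those of PSMB1 and PSMA2, both subunits of the core. PSMB1 had 45.2 and 51.0 CPM in the adult lens, against 98.1 and 115, and PSMA2 had 41.9 and 45.5 against 86.3 and 96.2. PSMC2 was at 29.9 and 38.5 against 66.7 and 86.6, PSMD14 at 15.9 and 14.99 against 27.5 and 57.7, and PSMB7 at 59.8 and 54.5 against 110 and 96.2. PSMB5 and PSMC3 were the other members called. The developmental values on this side rest on few UMIs as well. In all, lens spots held 294 core and 178 regulatory subunit UMIs in the stage 4 head, and 150 and 119 in the mixed area.

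Each member's share of the members' UMIs does not depend on crystallins or on scaling. Among the 21 members with at least 100 UMIs in adult lens spots, 6 had a larger share in both adult lenses than in both developmental ones. A smaller share was seen for 8. These 21 entered on adult counts alone, so members low in the adult lens could be left out. The shares sum to a fixed total and have no counterpart over all genes, so both counts only describe these members. PSMD7 took 13.1% (11.8 to 14.4%) and 12.3% (11.2 to 13.4%) of the members' UMIs in the adult lens, against 2.95% (1.62 to 4.91%) in the stage 4 lens and 8.18% (5.20 to 12.1%) in the lens of the mixed area. Its share in the adult retina was 4.72% and 3.80%. PSMB6 took 9.06% and 9.10%, against 5.70% and 4.83%, and psma6b 6.65% and 6.15%, against 2.53% and 3.35%. PSMC5, psmd4a and PSMD13 were the other members with a larger adult share, and the developmental values of all 6 rest on 3 to 27 UMIs per section. In CPM, PSMD7 had 231 and 199 in the adult lens, against 54.9 and 212, so its level in the mixed area lay between the adult eyes.

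**Figure D4:**
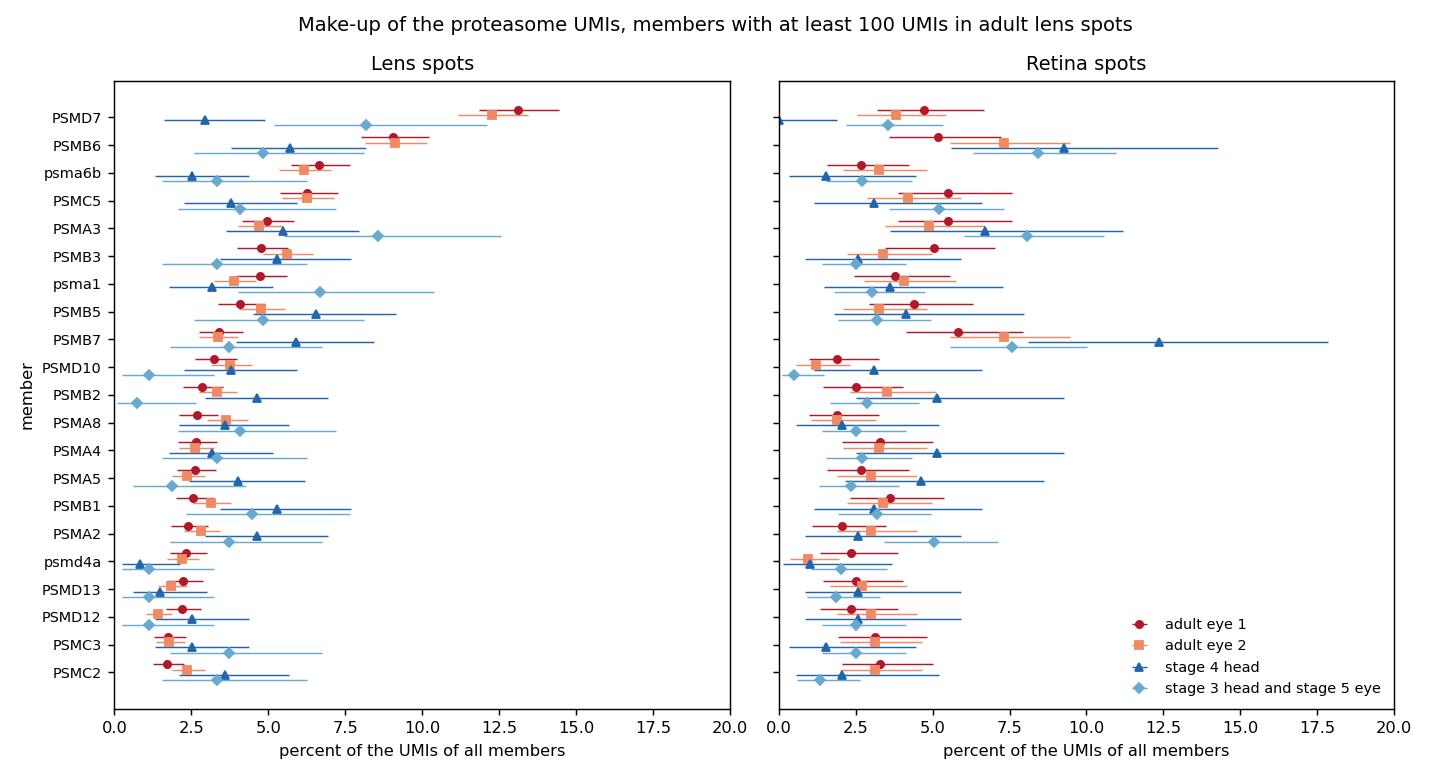
Share of the members' own UMIs (horizontal axis, percent) for each member with at least 100 UMIs in adult lens spots, in lens (left) and retina (right). Points are single sections with exact 95% intervals, and PSMD7, PSMB6 and psma6b have their largest shares in the adult lens.

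The balance of core and regulatory subunits was also read within the members. The core subunits took 55.3% and 55.2% of the core and regulatory UMIs in the adult eyes, against 62.8% for the stage 4 head and 55.5% for the mixed area. In muscle the core share was 54.0% (47.0 to 60.8%) and 46.6% (41.6 to 51.5%), against 64.2% (61.9 to 66.5%) and 57.1% (47.1 to 66.8%). In retina it was 50.6% and 53.9%, against 68.1% and 57.3%. The stage 4 head had the highest core share in every class but epithelium, where the mixed area was highest at 60.0%. In stage 4 retina spots PSMD7 and PSMD14 had 0 UMIs, where 3 counts would be 27.8 CPM, against 139 and 124 for PSMD7 and 65.0 and 88.7 for PSMD14 in the adult retina.

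The tissues themselves were compared in a test across all 4 sections. UMIs were summed per section and class and fitted with edgeR (quasi-likelihood test, TMM scaling, section as a block), with Benjamini-Hochberg adjustment over the 2556 genes that passed the filter on low counts, 28 of the 44 members among them. TMM scaling sets the bulk of genes level between libraries. Here its factors ran from 0.186 in adult lens to 3.096 in adult retina, so a change on this scale is one against the TMM reference and not a share of the RNA. The median gene need not lie at 0 on this scale, and in lens against retina it lay at -0.45. Without scaling factors the fit compares shares of UMIs, an alternative added after seeing the data, and its values stand beside those with TMM.

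With TMM, 18 of 28 members passed as higher in lens than in retina, against 21.6% of all genes tested, and 0 as lower, against 35.3%. On shares of all UMIs, with no scaling factors, 0 passed as higher and 15 as lower. The median log2 ratio of the members was 1.40 with TMM and -1.41 on shares of UMIs, while the median of all genes tested was -0.45 and -3.34. The members' median thus lay 1.86 and 1.93 above that of all genes, under the 2 scalings. On shares 3.25% of all genes tested passed as higher and 80.9% as lower. Without crystallins and without factors, 0 members passed as higher and 2 as lower, against 3.79% and 70.2% of genes, with a median of -0.70.

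By family, members passing as higher in lens with TMM were 7 of 7 PSMA, 6 of 7 PSMB, 4 of 5 PSMC and 1 of 9 PSMD. Of all genes tested 21.6% did so. On shares of UMIs 2, 4, 2 and 7 of these members passed as lower, against 80.9% of all genes tested. The family medians were 1.53, 1.56, 1.38 and 0.86 with TMM, and -1.19, -1.40, -1.09 and -1.93 on shares. PSMD7 had the largest ratio, with the lens and retina levels given above. Its log2 ratio was 3.11 ± 0.60 (SE, edgeR adjusted p = 0.000126) with TMM, and 0.28 (adjusted p = 0.646) on shares of all UMIs. It was the only one of the 8 members with the smallest p that kept its sign under every scaling. The ratio of psma6b was 2.43 ± 0.49 (SE, adjusted p = 0.000205) with TMM and -0.52 on shares. The ratio of PSMA8 was 2.26 ± 0.48 (adjusted p = 0.00034) with TMM and -0.53 on shares. PSMB3, psma1, PSMB5, PSMC5 and PSMB1, the others of the 8, had log2 ratios of 1.69 to 2.05 with TMM and of -1.07 to -0.74 on shares. At the other end, PSMB7 did not pass with TMM (0.62 ± 0.41, adjusted p = 0.208) and passed as lower on shares of UMIs (-2.19, adjusted p = 0.000655). PSMC6 and PSMD3 likewise had 0.51 and 0.47 with TMM and -2.45 and -2.31 on shares. The share values of PSMB7, PSMC6 and PSMD3 still lay above the median of all genes tested, which was -3.34.

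**Figure D5:**
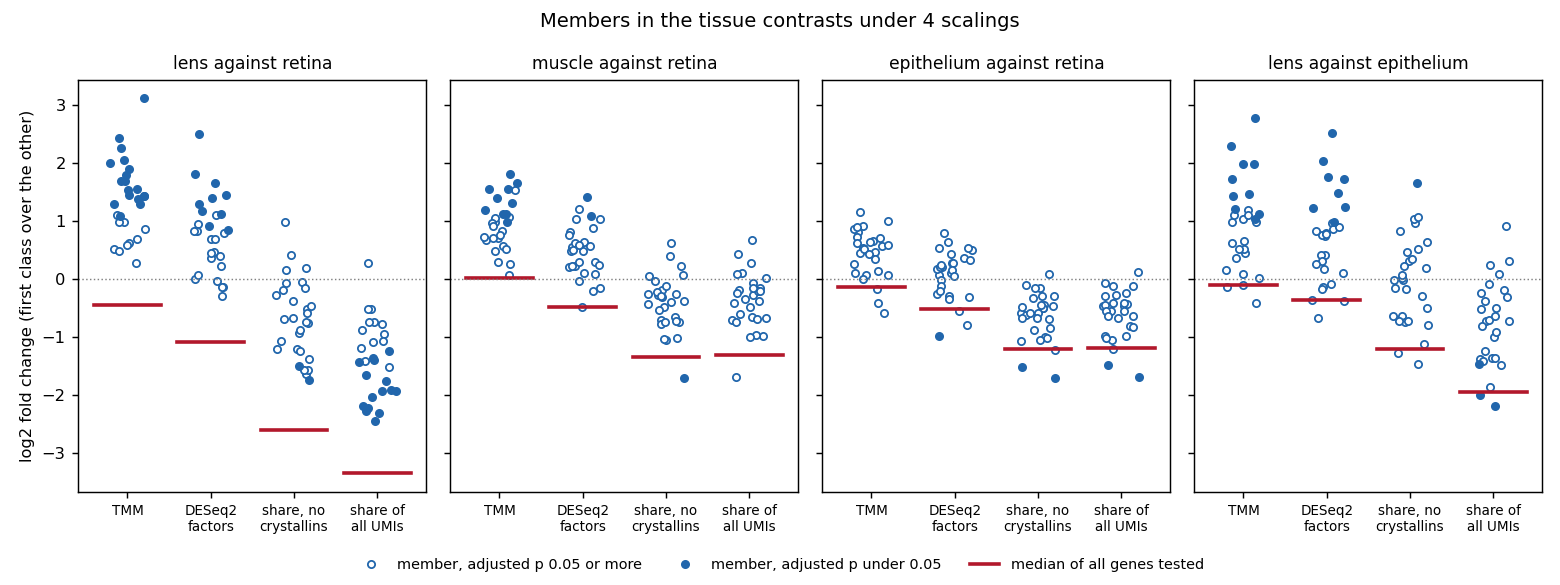
Log2 fold changes (vertical axis) of the members tested in 4 tissue contrasts, under TMM, DESeq2 size factors, shares without crystallins and shares of all UMIs. Each circle is 1 member (filled when its adjusted p is under 0.05) and the red bars are the median of all genes tested, and most members lie above the red bar under every scaling while their side of 0 changes.

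Against epithelium, 10 of 28 members passed as higher in lens with TMM, against 19.0% of all genes tested, and 0 as lower, against 25.3%. On shares of all UMIs 0 passed as higher, against 4.304% of genes, and 3 as lower, against 56.1%. Without crystallins 1 passed as higher, against 6.07%, which was PSMD7 (log2 1.65, adjusted p = 0.0195), and 0 as lower, against 37.4%. The members' median was 1.01 with TMM, where that of all genes was -0.11, and -0.73 on shares, where it was -1.95. PSMD7 (2.77 ± 0.61), psma6b (2.29 ± 0.50), PSMB3 (1.99 ± 0.44) and PSMB6 (1.98 ± 0.48) were higher with TMM with adjusted p of 0.000853, 0.000853, 0.000971 and 0.00209. They were also above 0 on shares, at 0.91, 0.31, 0.24 and 0.09, where none of the 4 passed. PSMC5, psma1, PSMB5 and PSMB7 had 1.21 to 1.72 with TMM and -0.50 to -0.093 on shares.

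Muscle against retina gave 10 of 28 members higher with TMM, against 23.7% of all genes tested, and 0 lower, against 25.9%. With DESeq2 size factors 2 passed as higher, against 17.7% of genes, and with no filter on low counts 0, against 4.79%. On shares of all UMIs 0 passed in either direction, against 6.92% of genes higher and 41.0% lower. The members' median was 0.97 with TMM, where that of all genes was 0.02, and -0.31 on shares, where it was -1.31. PSMD3, a scaffold subunit of the lid, had 130 and 113 CPM in adult muscle and 15.8 and 44.9 in developmental muscle, against 27.9 and 53.2 in adult retina and 9.27 and 106 in developmental retina. Its log2 ratio was 1.81 ± 0.48 (SE, edgeR adjusted p = 0.00319) with TMM and 0.68 on shares. Its level in stage 4 retina lay under that of 3 counts. Adult muscle spots held 61891 and 115394 UMIs of all genes, so the PSMD3 levels there rest on few UMIs. The ratios of PSMC4, PSMB5 and PSMD14 were 1.55, 1.56 and 1.66 with TMM and 0.27, 0.10 and 0.44 on shares, of the same sign. PSMA8, PSMB4 and PSMB3 had 1.12 to 1.40 with TMM and -0.21 to -0.061 on shares, and PSMC3 had 1.18 and 0.01. Leaving out 1 section at a time left from 1 of 24 members called, against 21.6% of genes, to 6 of 31, against 17.0%.

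Epithelium against retina gave 0 of 28 members in either direction with TMM, against 20.7% of all genes tested higher and 24.1% lower. The 2 members with the smallest p, neither of which passed, were PSMA8 (1.15 ± 0.49, edgeR adjusted p = 0.0625) and PSMB4 (0.99 ± 0.48, adjusted p = 0.0955). DESeq2's Wald test gave 0 higher, against 16.6% of genes, and 1 lower, against 31.5%. PSMB6 and PSMB7 were lower on shares of UMIs, against 38.9% of genes. The median of the members was 0.53 with TMM and -0.55 on shares.

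Other genes of the pathway, a list of 34 with activators, assembly factors, ubiquitin genes and shuttle factors, were counted in the same fit. Of the 11 tested, 7 passed as higher in lens than in retina with TMM, against 21.6% of all genes tested, and 0 as lower, against 35.3% (median 1.28). On shares of UMIs 0 passed as higher, against 3.25% of genes, and 7 as lower, against 80.9% (median -1.66). PSMG3, an assembly chaperone of the core, had a log2 ratio of 3.37 ± 0.60 (SE, edgeR adjusted p = 5.27e-05) with TMM and 0.37 (adjusted p = 0.532) on shares. The shuttle factor RAD23B had 3.26 ± 0.56 (adjusted p = 3.66e-05) with TMM and 0.40 (adjusted p = 0.531) on shares. For comparison, 76 of 76 ribosomal protein genes and 7 of 7 chaperonin genes passed as higher in lens with TMM, with medians of 2.27 and 1.97, and on shares their medians were -0.41 and -0.90.

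Between adult and developmental whole sections 6 of the 23 pathway genes tested were called higher and 1 lower, read against the 13.0% and 4.88% of all genes. PSME1 and PSME2, which form a proteasome activator, were at least 1.78-fold and 2.65-fold higher in the adult eyes. PSMG3, the core assembly chaperone, was at least 3.50-fold higher, and the ubiquitin receptor ADRM1 at least 1.65-fold lower. In lens spots PSMG3 and PSME3IP1 were called higher and POMP, the core maturation factor, lower, of 14 tested, read against 8.85% and 21.2% of all genes in lens.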

How the data were processed

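The deposited matrices held UMI counts for each gene in each spot, not normalized, and per the file headers came from Space Ranger 3.1.3. The genome build and annotation are not given in the sources used here. Counts were summed per section and spot class (Python 3.11.15). Each spot with at least 100 UMIs took the class whose marker share was highest relative to its minimum, with at least 3 marker UMIs. The minimums were set after marker shares, not proteasome values, had been seen. No doublet caller was run. Tissue contrasts used edgeR 4.0.16 in R 4.3.3 (filterByExpr, TMM, section as block, adjusted p of 0.05). The fitting code was also run on simulated counts, where all classes shared the same profile apart from some genes raised in lens. That run says nothing on scaling between tissues as unlike as these. DESeq2 1.42.0, Leiden clusters (scanpy 1.11.5, igraph 0.11.9), other denominators, filters and scalings, and each section left out were alternatives. The 4 sections limit precision. With section as a block, p-values measure only how far differences between classes vary from section to section, pooled over the 4 classes. That spread may be technical.

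The members, lists and tests were chosen with earlier results of these data known. Named were up to 8 members past the threshold per contrast by p, 5 per direction with the widest gap between adult and developmental sections, the 2 with most UMIs per family, members sharing a symbol stem, members under 10 UMIs, and immune-type beta subunits with their counterparts. PSMD1, PSMD10, PSMC6 and the pathway genes were named after their values were seen.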

Additional observations from a re-analysis of the deposited data

Results flagged for a closer look

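In 2 tissue ratios every adult section lay on one side of 0 and every developmental section on the other, and neither difference was tested. The members' share in muscle over that in retina had a log2 ratio of 0.28 and 0.16 in adult eyes 1 and 2, against -0.88 for the stage 4 head and -1.15 for the mixed area, a difference of 1.24 between the group means. The share in lens over that in epithelium had a log2 ratio of -1.31 and -1.47 in the adult eyes, against 0.36 and 0.40, a difference of -1.77. With crystallins left out the second ratio was -0.38 and -0.60 in the adult eyes, against 0.98 and 0.93. Epithelium markers held 6.01% and 4.40% of adult epithelium UMIs, against 1.88% and 1.70%, and their part in the ratio was not tested.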

How the results depend on the processing

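The tissue contrasts had section as a block throughout. Between adult and developmental sections no paired analysis was possible, because nothing in the labels pairs an adult section with a developmental one. For the summed share, the log2 ratio of adult over developmental sections in whole sections was 0.58 without crystallins, 0.54 without all class markers and 0.46 without crystallins and ribosomal genes, and ran from -0.30 (without the stage 4 head; -0.0018 without adult eye 1) to 0.56 with 1 section left out. In lens it was -0.39, -0.40 and -0.90 on those denominators and -1.06 as a median over members, and ran from -0.99 to -0.42. In retina it ran from -0.21 (without the stage 4 head) to 0.79, in muscle from 1.15 to 1.90 (1.17 with stricter marker shares) and in epithelium from 0.80 to 1.33 (1.29 with Leiden clusters, which gave no adult muscle cluster).

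The number of members tested differed between settings, and percentages in brackets are of all genes tested. Members called higher in lens over retina numbered 10 of 28 with DESeq2 size factors (15.7%) and 11 of 28 with DESeq2's Wald test (16.1%). In adult sections alone 28 of 32 passed (25.5%), and in developmental sections alone 1 of 14 (14.2%). On shares it was 0 of 28 with crystallins (3.25%) and 0 of 29 without (3.79%). With 1 section left out it ran from 8 of 25 (16.6%) to 23 of 30 (24.0%). Members called lower numbered 15 of 28 on shares (80.9%) and 2 of 29 without crystallins (70.2%). There was 1 of 41 with no filter (13.8%), 1 of 32 with Leiden clusters (30.3%) and 1 of 32 in adult sections alone (33.8%). In muscle over retina, higher calls numbered 2 and 3 of 28 with DESeq2's factors and test (17.7% and 18.1%). They were 0 on shares with and without crystallins (6.92% and 6.96%) and 0 of 41 with no filter (4.79%). Stricter shares gave 4 of 19 (18.2%), Leiden clusters 4 of 32 (12.6%) and developmental sections 2 of 14 (20.4%). With 1 section left out it was 1 of 24 (21.6%) to 6 of 31 (17.0%). On shares without crystallins 1 of 29 was lower (43.5%). In epithelium over retina, 1 of 41 was higher with no filter (6.71%), 1 of 19 with stricter shares (20.2%) and 11 of 32 in adult sections (24.2%). With 1 section left out it was 0 of 25 (16.9%) to 3 of 30 (21.9%). Under DESeq2's factors and test 1 of 28 was lower (31.0% and 31.5%), and 2 were on shares with and without crystallins (38.9% and 41.8%). In lens over epithelium, higher calls numbered 0 of 28 on shares (4.304%) and 1 of 29 without crystallins (6.07%). They were 23 of 32 in adult sections (25.8%) and 0 of 14 in developmental sections (7.63%). With 1 section left out they ran from 3 of 25 (10.6%) to 14 of 30 (21.3%). Lower calls numbered 3 of 28 on shares (56.1%) and 1 of 41 with no filter (9.52%).

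On the 1.5-fold rule, all UMIs as denominator left 1 of 36 members higher in whole sections (5.79% of all genes tested) and 0 of 29 in lens (5.35%). With 1 section left out, higher calls ran from 4 of 32 to 29 of 36 in whole sections (14.1% to 64.1%). In lens they ran from 0 of 21 to 4 of 29 (12.5% to 21.4%) and in retina from 0 of 3 to 4 of 8 (15.1% to 46.2%). For muscle the range was 7 of 15 (42.8%) to 10 of 15 (43.6%), with none tested without the stage 4 head. For epithelium it was 0 of 1 (31.8%) to 15 of 17 (47.7%). Lower calls ran from 4 of 21 (26.5%) to 15 of 29 (37.7%) in lens and from 0 of 3 (11.6%) to 1 of 8 (7.68%) in retina. Leaving out an adult eye cut the members tested to 21 in lens, 3 in retina and 1 in epithelium.

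Named members that turned sign on shares of UMIs, with the value without crystallins second where it also turned, were in lens over retina psma6b (-0.52), PSMA8 (-0.53), PSMB3 (-0.74, -0.048), psma1 (-0.88, -0.20), PSMB5 (-0.75, -0.065), PSMC5 (-1.07, -0.37) and PSMB1 (-0.95, -0.28). In muscle over retina they were PSMA8 (-0.15, -0.19), PSMB4 (-0.061, -0.12), PSMB3 (-0.21, -0.26) and PSMC3 (-0.038 without crystallins alone). In lens over epithelium they were PSMC5 (-0.093), psma1 (-0.24), PSMB5 (-0.20) and PSMB7 (-0.50). The cause of these shifts was not tested. The members' UMIs in the 4 tissue classes ran from 214 to 3252 in the adult eyes, against 105 to 1666 in the developmental sections, and the part of these depths in the number of calls was not tested.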
